A study of Homo sapiens with 10 samples.

Results

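Plasma membrane amino acid transporters were examined in QGP-1 cells as 10 genes, chosen by name: SLC7A5, SLC3A2, SLC43A1, SLC7A6, SLC1A4, SLC1A5, SLC38A1, SLC38A2, SLC7A1 and SLC6A9. They are 10 of the 35606 gene IDs listed in each of the deposited tables. All 10 reached a mean of 1 CPM (a read count scaled to the size of its library), as did 13591 genes in the knockdown table and 13520 in the drug table, so none was set aside.

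QGP-1 (QGP1 in the labels) is a human cell line established from a neuroendocrine tumor of the pancreas, grown in RPMI-1640 medium. RNA-seq covered 10 samples in 5 groups of 2. Cells made for CRISPR interference (CRISPRi), which stably carry a Cas9 without nuclease activity fused to the KRAB repressor, received the control guide sgNC or a single guide against PIKFYVE, sgPIKFYVE-1 (sgPIKFYVE_1 in the labels). Parental cells received the vehicle DMSO, apilimod at 1 µM, an inhibitor of the lipid kinase PIKfyve, or Torin-1 (Torin1 in the labels) at 100 nM, an inhibitor of the kinase mTOR. The labels give 24 h for both drugs, and the study's text a shorter time. One guide and one cell line were used, and whether the samples of a group came from separate cultures is not stated, so the p-values measure only the spread between these samples.

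Cells cannot make essential amino acids and take them up through solute carriers of the plasma membrane. SLC7A5 (LAT1) imports leucine and other large neutral amino acids in exchange for intracellular glutamine and works only as a heterodimer with the glycoprotein encoded by SLC3A2 (CD98 heavy chain, 4F2hc), whereas the SLC38 carriers load neutral amino acids such as glutamine and alanine with sodium. Imported leucine and arginine activate mTORC1 at the lysosome, and several of these transporter genes are known targets of the transcription factor ATF4, which responds to amino acid shortage and acts downstream of mTORC1 as well.

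The targeted gene was checked first. PIKFYVE had 100.7 and 97.5 CPM with sgNC and 10.9 and 12.5 CPM with sgPIKFYVE-1, a log2 fold change of -2.98. Libraries held an estimated 9.30 M to 13.6 M reads, so that 3 reads correspond to 0.227 to 0.329 CPM. This limit takes in counting error alone. All 10 markers of neuroendocrine and epithelial cells, among them CHGA, SYP and EPCAM, were at or above 1 CPM in every sample, with a sum between 4271 and 6136 CPM. Of 9 markers of fibroblasts, immune and endothelial cells, 1 to 3 reached 1 CPM in a sample, with a sum between 4.26 and 15.1 CPM. These are bulk values, in which fewer cells of a kind and less RNA per cell cannot be told apart.

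Levels of different genes were compared per kb of transcript, using the longest principal transcript of GENCODE release 29. SLC38A2, which encodes the sodium-coupled neutral amino acid transporter SNAT2, was highest in both kinds of control cells. Its samples lay at or above 255 CPM per kb with sgNC and 143 with DMSO, where SLC38A1 reached 140. Not divided by transcript length, SLC38A1 was above SLC38A2 with DMSO, at a mean of 1112 against 717 CPM. With sgNC the order was SLC38A2, SLC3A2, SLC38A1, SLC1A5, SLC7A5, SLC7A1, SLC1A4, SLC7A6, SLC43A1 and SLC6A9. The samples of neighbours overlapped only for SLC3A2 and SLC38A1. With DMSO, SLC38A1 came before SLC3A2, and the samples of SLC1A5 and SLC7A5 overlapped, while all other neighbours were separated. With apilimod the mean of SLC38A1, 153 CPM per kb, was the highest of the 10, above SLC3A2 at 127 and SLC38A2 at 119. SLC6A9 was lowest, at or under 0.681 CPM per kb with sgNC and 1.24 with DMSO. SLC38A1 and SLC38A2 together made up 72.4% to 73.2% of the summed CPM of the 10 genes with sgNC and 64.9% to 66.7% with DMSO. The knockdown and drug tables were scaled separately, so the levels of the control groups were not tested against each other.

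**Figure D1:**
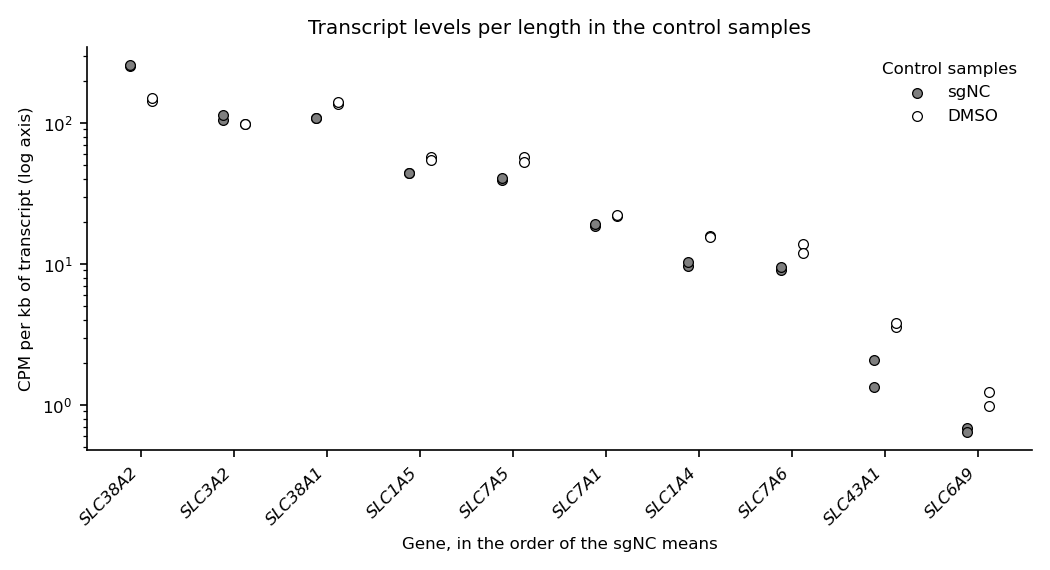
Transcript level of the 10 genes in the 2 sgNC samples (grey) and the 2 DMSO samples (white), in CPM per kb of transcript on a log axis, ordered by the sgNC means. SLC38A2 is highest and SLC6A9 lowest in both control groups, and the groups come from tables that were scaled separately.

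Reads of other genes could affect a few of these values. SLC7A6 overlaps SLC7A6OS (24.8 and 22.4 CPM on average in the knockdown and drug tables) and SLC6A9 overlaps CCDC24 (27.8 and 26.7 CPM), each on the opposite strand. Whether counting used the strand is not given in the sources used here, so the low values of SLC6A9 in particular are uncertain. The pseudogenes SLC7A5P1 and SLC7A5P2, which carry the name of SLC7A5, were listed at a mean of 0.192 CPM or less.

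Windows around the annotated transcription starts, 250 bases before to 50 after, were taken from RefSeq on GRCh38.p14 for all 10 genes (17 windows) and searched for the core of the C/EBP-ATF response element, the site that ATF4 is known to bind. The core was written as TGATGNAA, where N is any base, and searched on both strands. It was found in 5 of the 17 windows, belonging to 5 of the 10 genes, and in 3.62% of all 35116 windows, or 4.46% of 27305 genes. Genes with several windows had more chances of a match. Only the SLC7A1 core lay in a window at the outer 5′ end of its gene. Those of SLC3A2, SLC1A4, SLC1A5 and SLC38A1 were in windows around starts inside the gene. The 5′-end windows of SLC3A2, SLC1A4 and SLC1A5 held no core. A search for the E-box CACGTG, which is its own reverse complement, was added after the windows had been seen. It was found in windows of 3 of the 10 genes, SLC7A5, SLC43A1 and SLC1A5, and in 7.26% of all windows, or 8.77% of genes. No window of the 10 genes held both motifs, so their matches did not overlap.

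The windows of both chains of the heterodimer are shown with that of SLC38A2, the highest member per kb in control cells. One of SLC1A4, a further member with the core, is shown as well. All run 5′ to 3′ on the strand of the gene, with matches in capitals. The SLC7A5 window (chr16:87869458-87869757, reverse strand) holds an E-box that begins 130 bases before the start, and no core. The SLC3A2 window is one of 3 for this gene (chr11:62881449-62881748, forward strand) and holds the core, read on the other strand, from position 38 of the transcript, in a noncoding part of an exon. The SLC1A4 window is one of 2 (chr2:64989149-64989448, forward strand) and holds the core, also read on the other strand, from 7 bases before the start, in an intron. The SLC38A2 window (chr12:46372724-46373023, reverse strand) holds neither.
SLC7A5: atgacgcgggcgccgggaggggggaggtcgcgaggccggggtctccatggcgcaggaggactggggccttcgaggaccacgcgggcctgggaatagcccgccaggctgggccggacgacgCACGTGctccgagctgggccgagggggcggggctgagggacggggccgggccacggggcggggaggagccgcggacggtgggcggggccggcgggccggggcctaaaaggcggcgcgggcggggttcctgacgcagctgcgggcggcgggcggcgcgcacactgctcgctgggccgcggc
SLC3A2: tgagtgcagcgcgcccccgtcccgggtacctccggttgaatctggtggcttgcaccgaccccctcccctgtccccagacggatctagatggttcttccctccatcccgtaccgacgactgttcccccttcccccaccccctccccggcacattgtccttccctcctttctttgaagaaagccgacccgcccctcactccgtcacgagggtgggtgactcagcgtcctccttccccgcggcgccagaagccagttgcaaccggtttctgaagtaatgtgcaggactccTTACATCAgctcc
SLC1A4: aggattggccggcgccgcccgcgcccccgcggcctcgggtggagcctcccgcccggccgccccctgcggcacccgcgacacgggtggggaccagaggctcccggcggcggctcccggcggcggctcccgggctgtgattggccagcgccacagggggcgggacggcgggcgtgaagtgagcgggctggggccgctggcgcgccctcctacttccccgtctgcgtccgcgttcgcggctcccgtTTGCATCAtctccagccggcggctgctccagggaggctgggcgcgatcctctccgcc
SLC38A2: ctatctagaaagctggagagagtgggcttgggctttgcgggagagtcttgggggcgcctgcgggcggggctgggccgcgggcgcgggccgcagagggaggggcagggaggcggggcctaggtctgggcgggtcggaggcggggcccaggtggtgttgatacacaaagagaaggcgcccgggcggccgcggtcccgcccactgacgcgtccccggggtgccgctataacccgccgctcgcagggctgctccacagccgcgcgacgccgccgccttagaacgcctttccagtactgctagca
The other cores were in a window of SLC1A5 (chr19:46784765-46785064, reverse strand, in a noncoding part of an exon), SLC38A1 (chr12:46266467-46266766, reverse strand, intron) and SLC7A1 (chr13:29595639-29595938, reverse strand, in a noncoding part of an exon). The windows of SLC7A6 and SLC6A9 held neither motif. A match shows only that these letters are present. A window without a match does not show that a gene lacks such a site. Among genes of the ATF4 pathway searched in the same way, ASNS and CHAC1 had the core in a window. TRIB3, DDIT3, ATF5, PSAT1 and PHGDH did not.

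In the PIKFYVE knockdown, 7 of the 10 transporters rose and 1 fell, with limma's moderated test on log2(CPM + 1) and Benjamini-Hochberg adjustment over all genes tested. Of all 13591 genes, 21.6% were called higher and 20.9% lower at this threshold of 0.05. Of these calls 50.8% were higher, and 43.6% with samples rescaled to a common sum. SLC6A9, SLC1A5, SLC1A4, SLC7A5, SLC38A1, SLC7A6 and SLC3A2 rose, SLC38A2 fell, and SLC43A1 and SLC7A1 did not pass. The median log2 fold change of the 10 was 0.34, against -0.0042 over all genes tested. With no filter on low values or no variance trend, SLC3A2 and SLC7A6 did not pass (adjusted p between 0.0579 and 0.169).

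Under apilimod, 3 transporters rose, SLC3A2, SLC7A5 and SLC1A5, and SLC38A2 fell. Of all 13520 genes, 5.75% were called higher and 2.79% lower. Of these calls 67.4% were higher, a share that was 55.1% after quantile normalization and 54.2% with samples rescaled to a common sum. The median log2 fold change of the 10 was 0.11, against -0.0057 over all genes. The call of SLC3A2 held with each sample left out. Those of SLC7A5, SLC1A5 and SLC38A2 did not hold without apilimod replicate 1 or without DMSO replicate 2, where their adjusted p lay between 0.0587 and 0.156. With no filter on low values SLC3A2 alone passed, and with no variance trend limma called 0 of the 10, of which 5 had an unadjusted p under 0.05.

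Under Torin-1, 5 transporters fell, SLC7A5, SLC6A9, SLC3A2, SLC7A6 and SLC1A5, and 3 rose, SLC38A2, SLC7A1 and SLC38A1. Of all 13520 genes, 16.6% were called higher and 21.8% lower. The median log2 fold change of the 10 was -0.20, against -0.012 over all genes. With no variance trend SLC38A1 (adjusted p = 0.0978) and SLC6A9 (adjusted p = 0.0560) did not pass, nor did SLC6A9 with no filter (adjusted p = 0.104). Apilimod and Torin-1 share their DMSO samples, and the direct comparison of the drugs is given further on. Treated and control samples did not overlap for 10 of the 10 genes in the knockdown, 8 with apilimod and 9 with Torin-1. The same held for 70.6%, 50.7% and 69.3% of all genes tested. With 2 samples a group, it therefore says little about a single gene. The plot of log2 fold changes by gene sets the comparisons side by side.

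**Figure D2:**
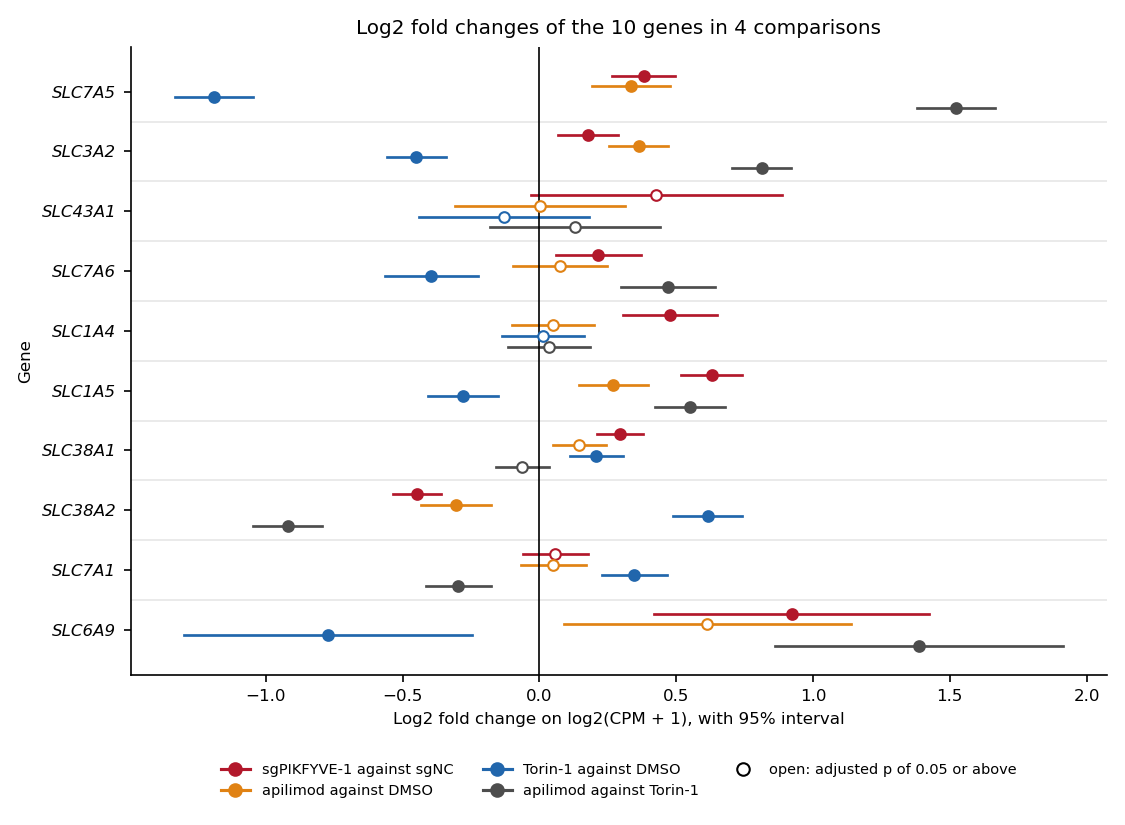
Log2 fold change of each gene on log2(CPM + 1), with its 95% interval from limma, in 4 comparisons (colours). Filled points have an adjusted p under 0.05. SLC7A5, SLC3A2 and SLC1A5 lie above 0 with the knockdown and apilimod and below 0 with Torin-1, and SLC38A2 lies on the other side each time.

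SLC7A5 (ENSG00000103257.9, chromosome 16 from 87830023 to 87869488) encodes the catalytic light chain of the leucine importer. It had 179.6 and 185 CPM with sgNC and 249 and 227 CPM with sgPIKFYVE-1. In the drug table it had 259.5 and 240.4 CPM with DMSO, 328 and 303 CPM with apilimod and 115 and 103 CPM with Torin-1. Both apilimod samples lay above both DMSO samples, and both Torin-1 samples were less than either by more than the spread of any group. The log2 fold change was 0.38 in the knockdown (SE 0.055, adjusted p = 1.42e-05, limma), a mean 1.31-fold higher. It was 0.33 with apilimod (SE 0.066, adjusted p = 0.00476, limma). With Torin-1 it was -1.19 (SE 0.066, adjusted p = 1.27e-08, limma), and the mean was 56.3% lower. SLC7A5 was the member that fell most with Torin-1.

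SLC3A2 (ENSG00000168003.16, chromosome 11 from 62856102 to 62888875) encodes the heavy chain that carries SLC7A5, SLC7A6 and other light chains to the cell surface. It had 225 and 246 CPM with sgNC and 271 and 263 CPM with sgPIKFYVE-1, groups that did not overlap but lay close. The values were 212 and 214 CPM with DMSO, 271 and 277 CPM with apilimod and 155 and 156 CPM with Torin-1. Here the 3 groups were far apart relative to the spread within each. SLC3A2 was higher in the knockdown by 0.18 on the log2 scale (SE 0.052, adjusted p = 0.00985, limma). This call did not hold without sgNC replicate 1 (adjusted p = 0.191) or sgPIKFYVE-1 replicate 1 (adjusted p = 0.0626). The log2 fold change was 0.36 with apilimod (SE 0.050, adjusted p = 2.63e-04, limma) and -0.45 with Torin-1 (SE 0.050, adjusted p = 1.13e-05, limma).

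The balance of the light and heavy chain genes was taken from their ratio. The ratio of SLC7A5 to SLC3A2 per kb was 0.584 and 0.536 with DMSO and 0.576 and 0.522 with apilimod, overlapping ranges. With Torin-1 it was 0.355 and 0.315, below all of these. It was 0.380 and 0.358 with sgNC and 0.438 and 0.411 with sgPIKFYVE-1, which did not overlap. These ratios are a description of 2 samples a group and were not tested.

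SLC7A6 (ENSG00000103064.15, chromosome 16 from 68264516 to 68301823) encodes y+LAT2, a further light chain of SLC3A2 that exchanges cationic for neutral amino acids. It had 57.5 and 60.2 CPM with sgNC and 70.4 and 66.6 CPM with sgPIKFYVE-1. In the drug table it had 87.3 and 75.0 CPM with DMSO, 84.1 and 86.3 CPM with apilimod and 62.7 and 59.9 CPM with Torin-1. The apilimod samples lay within the DMSO range and the Torin-1 samples below it. SLC7A6 rose by 0.22 in the knockdown (SE 0.074, adjusted p = 0.0244, limma), a call that did not hold without sgNC replicate 1, sgNC replicate 2 or sgPIKFYVE-1 replicate 1 (adjusted p between 0.0525 and 0.171) or with samples rescaled to a common sum (adjusted p = 0.0646). With Torin-1 the log2 fold change was -0.39 (SE 0.080, adjusted p = 0.00151, limma). With apilimod it was 0.074 (95% interval -0.097 to 0.25), and it was -0.034 without DMSO replicate 2.

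SLC43A1 (ENSG00000149150.9, chromosome 11 from 57484534 to 57515786) encodes LAT3, which carries branched-chain amino acids without a heavy chain or an exchange partner. It had 5.38 and 3.49 CPM with sgNC, 6.25 and 6.15 CPM with sgPIKFYVE-1, 9.32 and 9.95 CPM with DMSO, 9.70 and 9.60 CPM with apilimod and 8.66 and 8.80 CPM with Torin-1. It was called in no comparison. Its log2 fold change was 0.43 in the knockdown (95% interval -0.031 to 0.89, adjusted p = 0.127, limma), where the sgNC samples were far apart, and 0.68 without sgNC replicate 1 (adjusted p = 0.0493) against 0.17 without sgNC replicate 2 (adjusted p = 0.667). With apilimod it was 0.0024, and -0.019 after quantile normalization and -0.026 with samples rescaled to a common sum. With Torin-1 it was -0.13 (95% interval -0.44 to 0.18).

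**Figure D3:**
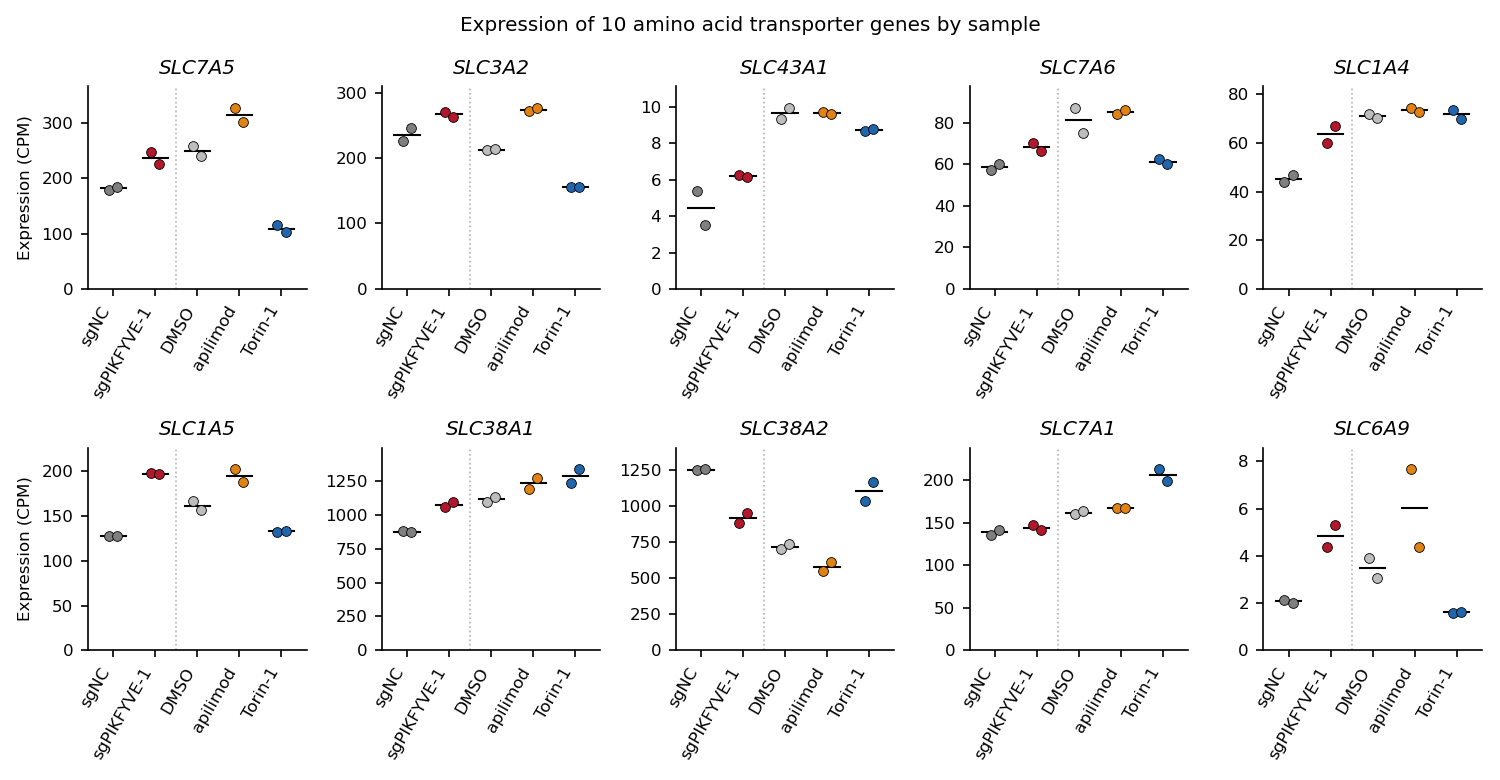
Expression of each gene in CPM, by sample (points) with the mean of 2 samples (black line), in the knockdown table (left of the dotted line) and the drug table (right). Each panel has its own axis from 0, and the tables were scaled separately. SLC38A2 is lower with sgPIKFYVE-1 and apilimod than in their controls and higher with Torin-1, the reverse of SLC7A5.

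SLC1A5 (ENSG00000105281.12, chromosome 19 from 46774883 to 46788594) encodes ASCT2, a sodium-dependent exchanger that is a main route for glutamine in many tumor cells. It had 127 CPM in both sgNC samples and 198 and 196 CPM with sgPIKFYVE-1. With DMSO it had 166 and 156 CPM, with apilimod 202 and 188 CPM and with Torin-1 132 and 133 CPM. None of these groups overlapped with its control, which held for 50.7% to 70.6% of all genes tested in these comparisons. Its log2 fold change was 0.63 in the knockdown (SE 0.053, adjusted p = 1.67e-08, limma), with a mean 1.55-fold that of sgNC. It was 0.27 with apilimod (SE 0.059, adjusted p = 0.00991, limma) and -0.28 with Torin-1 (SE 0.059, adjusted p = 0.00212, limma).

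SLC1A4 (ENSG00000115902.11, chromosome 2 from 64988477 to 65023865) encodes ASCT1, the related exchanger of alanine, serine and cysteine. It had 43.8 and 46.9 CPM with sgNC and 60.1 and 66.9 CPM with sgPIKFYVE-1, which lay above both. The drug table had 71.8 and 70.3 CPM with DMSO, 74.4 and 72.6 CPM with apilimod and 73.6 and 69.8 CPM with Torin-1, a narrow range in which Torin-1 and DMSO overlapped. The knockdown raised it by 0.48 on the log2 scale (SE 0.082, adjusted p = 1.14e-04, limma). With apilimod the log2 fold change was 0.049 (95% interval -0.10 to 0.20) and with Torin-1 0.013 (95% interval -0.14 to 0.16). The 95% interval in the knockdown was 0.30 to 0.65. The difference between the knockdown and apilimod was not tested, because the tables were scaled separately. The ratio of SLC1A5 to SLC1A4 per kb was 3.66 and 3.52 with DMSO, 4.29 and 4.09 with apilimod and 2.84 and 3.01 with Torin-1, in 3 separate ranges. These ratios were not tested.

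SLC38A1 (ENSG00000111371.15, chromosome 12 from 46183063 to 46270017) and SLC38A2 (ENSG00000134294.14, chromosome 12 from 46358189 to 46372867) encode SNAT1 and SNAT2 and lie next to each other among the members, with 88171 bases between them on the same strand. SLC38A1 had 880.0 and 869.7 CPM with sgNC and 1053 and 1094 CPM with sgPIKFYVE-1. In the drug table it had 1095 and 1128 CPM with DMSO, 1192 and 1269 CPM with apilimod and 1236 and 1334 CPM with Torin-1. The treated samples of every group were above their controls, and those of the drugs overlapped with each other. SLC38A1 rose by 0.29 in the knockdown (SE 0.040, adjusted p = 6.40e-06, limma) and by 0.21 with Torin-1 (SE 0.045, adjusted p = 0.00231, limma). With apilimod the log2 fold change was 0.15 (SE 0.045, adjusted p = 0.0627, limma), and it passed without either Torin-1 sample, which are not part of this contrast (adjusted p 0.0258 and 0.0250). It was 0.079 after quantile normalization (adjusted p = 0.239) and 0.10 without apilimod replicate 2 (adjusted p = 0.334).

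SLC38A2 had 1245 and 1253 CPM with sgNC and 879.9 and 953 CPM with sgPIKFYVE-1. With DMSO it had 699 and 734 CPM, with apilimod 551 and 610.1 CPM and with Torin-1 1033 and 1167 CPM. Both PIKfyve arms lay below their controls and Torin-1 above. The log2 fold change was -0.45 in the knockdown (SE 0.042, adjusted p = 7.52e-08, limma), a mean 26.6% lower. It was -0.30 with apilimod (SE 0.059, adjusted p = 0.00416, limma), a mean 19.0% lower. With Torin-1 it was 0.62 (SE 0.059, adjusted p = 2.83e-06, limma), a mean 1.54-fold that of DMSO.

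The balance of these neighbouring genes was likewise taken from ratios, which were not tested. The ratio of SLC38A2 to SLC38A1 per kb was 2.33 and 2.38 with sgNC and 1.38 and 1.44 with sgPIKFYVE-1. It was 1.05 and 1.07 with DMSO, 0.763 and 0.794 with apilimod and 1.38 and 1.44 with Torin-1. The ranges within each table did not overlap. SLC38A2 per SLC7A5, per kb, was 2.50 and 2.84 with DMSO, 1.56 and 1.87 with apilimod and 8.31 and 10.5 with Torin-1, and it was 6.44 and 6.30 with sgNC and 3.28 and 3.90 with sgPIKFYVE-1.

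**Figure D4:**
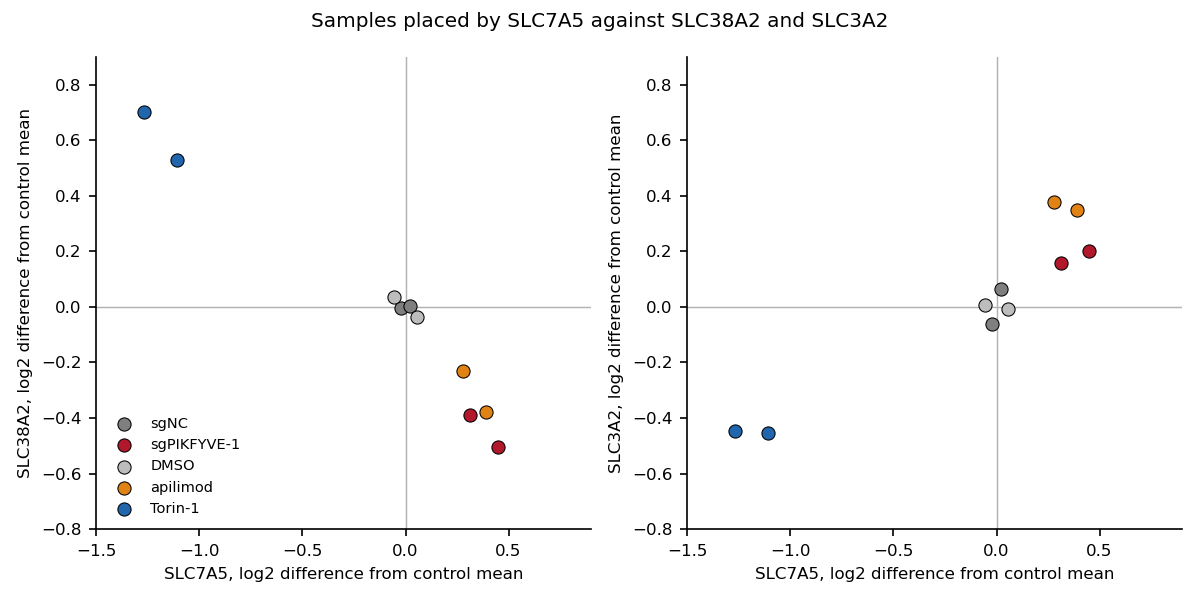
Each sample (point, coloured by group) placed by the log2 difference of SLC7A5 from the mean of the control group of its table (x axis) and by that of SLC38A2 (left) or SLC3A2 (right), on log2(CPM + 1). The knockdown and apilimod samples lie right of the controls with SLC38A2 below and SLC3A2 above them, and the Torin-1 samples lie opposite.

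SLC7A1 (ENSG00000139514.13, chromosome 13 from 29509410 to 29595688) encodes CAT1, the main importer of arginine and lysine in most cells. It had 136 and 141.3 CPM with sgNC and 147 and 141.4 CPM with sgPIKFYVE-1, groups that almost touched. With DMSO it had 160.0 and 163 CPM, with apilimod 168 and 167 CPM and with Torin-1 213 and 199 CPM, the last clearly apart. The log2 fold change with Torin-1 was 0.35 (SE 0.055, adjusted p = 2.44e-04, limma). It was 0.059 in the knockdown (95% interval -0.060 to 0.18) and 0.051 with apilimod (95% interval -0.068 to 0.17), neither of which passed.

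SLC6A9 (ENSG00000196517.11, chromosome 1 from 43991500 to 44031467) encodes GLYT1, a sodium- and chloride-coupled importer of glycine, and was the least expressed member. It had 2.13 and 2.01 CPM with sgNC and 4.38 and 5.29 CPM with sgPIKFYVE-1. The values were 3.89 and 3.07 CPM with DMSO, 7.66 and 4.38 CPM with apilimod and 1.58 and 1.64 CPM with Torin-1. The groups did not overlap with their controls, but the apilimod samples were far apart. The log2 fold change was 0.92 in the knockdown (SE 0.24, adjusted p = 0.00428, limma), 0.61 with apilimod (SE 0.24, adjusted p = 0.159, limma) and -0.77 with Torin-1 (SE 0.24, adjusted p = 0.0228, limma). With apilimod it was 0.27 without replicate 1 of that group (adjusted p = 0.707) and 0.96 without replicate 2 (adjusted p = 0.0516). The Torin-1 call did not hold without DMSO replicate 1 or either Torin-1 replicate (adjusted p between 0.0576 and 0.142). At these levels the pseudocount of 1 makes the log2 values smaller than the ratios of the means, which were 2.34, 1.73 and 0.463.

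Apilimod and Torin-1 were compared directly, which does not use the DMSO means, and 7 of the 10 genes differed, 5 higher and 2 lower with apilimod. Of all 13520 genes, 26.2% were called higher and 20.5% lower. Of these calls 56.2% were higher, against 48.2% after quantile normalization and 46.6% with samples rescaled to a common sum. SLC7A5 was higher with apilimod by 1.52 on the log2 scale (SE 0.066, adjusted p = 4.02e-10, limma), a mean 2.89-fold that of Torin-1. SLC6A9 was higher by 1.39, a mean 3.74-fold that of Torin-1, and by 1.79 with a pseudocount of 0.1, against 1.53 for SLC7A5. SLC3A2 was higher by 0.81, SLC1A5 by 0.55 and SLC7A6 by 0.47 (adjusted p, with that of SLC6A9, between 1.76e-08 and 3.67e-04, limma). SLC38A2 was lower with apilimod, at -0.92 (SE 0.059, adjusted p = 2.65e-08, limma), as was SLC7A1 at -0.30 (SE 0.055, adjusted p = 5.72e-04, limma). SLC43A1 at 0.13 (95% interval -0.18 to 0.44) did not pass. SLC1A4 did not pass either, at 0.036 (95% interval -0.11 to 0.19), and was -0.052 after quantile normalization and -0.025 with samples rescaled to a common sum. SLC38A1, at -0.063 (95% interval -0.16 to 0.034), passed only under those scalings, at -0.12 in each (adjusted p 0.0162 and 0.0217). The doses were 1 µM and 100 nM, so the comparison is of these treatments and not of matched amounts.

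The genes whose pattern was most like a member's were found by the root mean square difference of log2 values, each taken from the control mean, over the 6 treated samples and 13234 other genes tested in both tables. For SLC7A5 they were DCXR (0.13), SREBF1 (0.13), PRR15L (0.15), PNP (0.16) and MGST1 (0.16). For SLC3A2 they were SLC39A1 (0.054), STAT3 (0.061), MAP4 (0.068) and SEPHS2 (0.068). For SLC38A2 they were PDE4B (0.059), PNRC1 (0.073), TCIM (0.081), CNOT6L (0.085) and SAMD5 (0.086). Among the members, SLC7A6 was nearest to SLC3A2, at rank 260 (0.17), and SLC3A2 nearest to SLC7A5, at rank 581 (0.45). These distances are a description and carry no test.

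The other plasma membrane amino acid carriers were given by a list of 28 genes, of which 18 in the knockdown table and 19 in the drug table were under a mean of 1 CPM. Of the 10 tested in the knockdown, 4 rose and 2 fell (21.6% and 20.9% of all genes). The highest was SLC6A14 at 0.79 and the lowest SLC1A1 at -0.64. SLC6A14 was near the limit for testing, at 0.852 and 1.17 CPM with sgNC and 3.41 and 1.73 CPM with sgPIKFYVE-1 (adjusted p = 0.0461, limma). Of the 9 tested with the drugs, 3 rose with apilimod (5.75% of all genes), and with Torin-1 1 rose and 1 fell (16.6% and 21.8%). SLC7A8 (LAT2), a light chain of SLC3A2 with a broad range of neutral substrates, was 0.58 with apilimod (adjusted p = 1.21e-05, limma) and -0.36 with Torin-1 (adjusted p = 2.73e-04, limma), as SLC7A5 was in sign, but -0.034 in the knockdown (adjusted p = 0.588, limma). SLC7A11 (xCT), the cystine importer that also pairs with SLC3A2, rose in all 3, by 0.35, 0.28 and 0.50 (adjusted p = 0.0119 or less, limma). SLC43A2 (LAT4) was 0.39 in the knockdown (adjusted p = 0.0492, limma), -0.14 with apilimod and -0.17 with Torin-1. SLC7A7 (y+LAT1) passed in none, at -0.69, -0.39 and -0.0036.

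Carriers of the lysosome had median log2 fold changes of 0.012 in the knockdown, 0.12 with apilimod and -0.041 with Torin-1, and those of the mitochondrion 0.096, 0.050 and -0.24. Of 9 lysosomal carriers tested with apilimod, 4 rose, with CTNS, the cystine exporter, highest at 0.69 (adjusted p = 0.00161, limma). In the knockdown 2 of 8 rose and 2 fell, with SLC38A7 highest at 0.72 and MFSD12 lowest at -0.44. With Torin-1 limma called 0 of 9, and 0 had an unadjusted p under 0.05. SLC38A9, the lysosomal arginine sensor of mTORC1, was -0.052, -0.043 and -0.018 in the knockdown, apilimod and Torin-1 comparisons. Of 10 mitochondrial carriers, 3 rose and 2 fell in the knockdown, 3 rose with apilimod, and 1 rose and 5 fell with Torin-1. Over all genes tested, 21.6% were called higher and 20.9% lower in the knockdown. These shares were 5.75% and 2.79% with apilimod and 16.6% and 21.8% with Torin-1. SLC25A29, a mitochondrial carrier of basic amino acids, was lowest in the knockdown at -0.76 and highest with Torin-1 at 0.49. SLC25A44, the carrier of branched-chain amino acids, was highest with apilimod at 0.49, and SLC25A13 highest in the knockdown at 0.45.

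**Figure D5:**
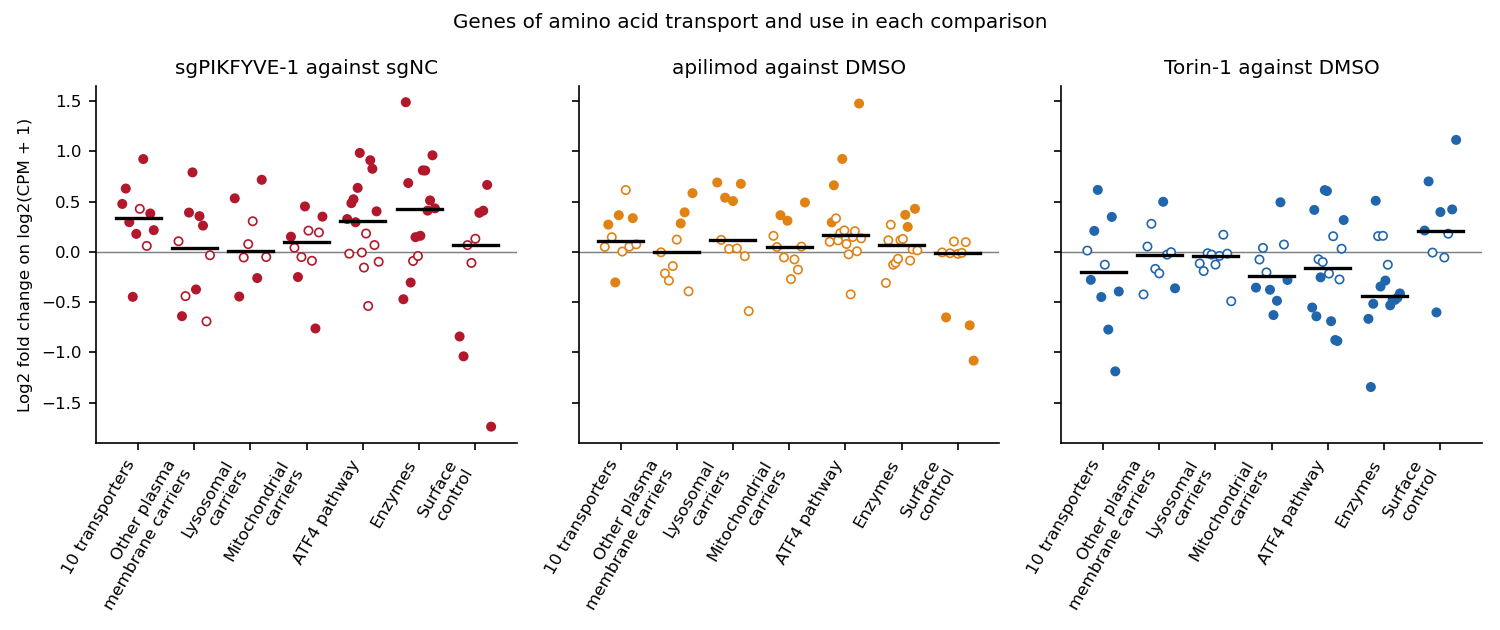
Log2 fold change of single genes (points, filled where the adjusted p is under 0.05) and the median of each list (black line) in the knockdown, apilimod and Torin-1 comparisons. The medians of the 10 transporters, the lysosomal and mitochondrial carriers, the ATF4 pathway and the enzymes lie above 0 with the knockdown and apilimod and below 0 with Torin-1. The lysosomal median in the knockdown is only 0.012. Those of the other plasma membrane carriers are 0.035, -0.0052 and -0.028 in the same order. For surface control the medians are 0.067, -0.014 and 0.21. Single genes of each list lie on both sides.

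Of 16 genes of the ATF4 pathway, 9 rose in the knockdown (21.6% of all genes) and 4 with apilimod (5.75%). With Torin-1 4 rose and 6 fell (16.6% and 21.8%). None was lower in the knockdown or with apilimod by limma, also at an unadjusted p under 0.05 (0 in each). The medians were 0.31, 0.17 and -0.16. ATF4 itself was -0.019 in the knockdown (adjusted p = 0.794, limma), 0.29 with apilimod (adjusted p = 0.00151, limma) and 0.42 with Torin-1 (adjusted p = 2.03e-05, limma). ASNS, the asparagine synthetase and a known ATF4 target, was 0.33 in the knockdown, 0.10 with apilimod and -0.55 with Torin-1, the middle value not called. TRIB3 was highest with apilimod at 1.47, DDIT3 highest in the knockdown at 0.98 and with Torin-1 at 0.61, and PSAT1 lowest with Torin-1 at -0.89. A core was found in a window of 5 members, for all but SLC7A1 around a start inside the gene. Of these, SLC3A2 and SLC1A5 rose with the knockdown and apilimod and fell with Torin-1. SLC7A5 did the same, and no core was found in the window searched for it. SLC38A1 rose in the knockdown and with Torin-1. SLC7A1 rose with Torin-1 and did not pass in the knockdown or with apilimod. SLC1A4 rose in the knockdown and passed with neither drug.

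Of 14 enzymes that use the imported amino acids, 10 rose and 2 fell in the knockdown (21.6% and 20.9% of all genes). With apilimod 3 rose (5.75%), and with Torin-1 1 rose and 10 fell (16.6% and 21.8%). BCAT1, which transaminates leucine, isoleucine and valine, had a mean of 48.5 CPM with sgPIKFYVE-1 against 16.6 with sgNC, a log2 fold change of 1.49 (adjusted p = 1.34e-09, limma). With Torin-1 its mean was 23.5 CPM against 61.2 with DMSO, a log2 fold change of -1.34 (adjusted p = 5.40e-08, limma). SHMT1 was highest with apilimod at 0.43, BCKDHA highest with Torin-1 at 0.51 and ARG2 lowest in the knockdown at -0.47.

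Genes known to control carriers at the cell surface included 9 that were tested. In the knockdown 3 rose and 3 fell (21.6% and 20.9% of all genes). With apilimod 3 fell (2.79%), and with Torin-1 5 rose and 1 fell (16.6% and 21.8%). TXNIP, an arrestin-like protein known for the uptake of glucose carriers from the surface, had the lowest value in the knockdown at -1.74 and with apilimod at -1.08 and the highest with Torin-1 at 1.11 (adjusted p between 2.78e-16 and 2.05e-10, limma), the direction of SLC38A2 in each. SGK1 was highest in the knockdown at 0.67, and LAPTM4B, which is known to bring the SLC7A5 and SLC3A2 heterodimer to lysosomes, was lowest with Torin-1 at -0.60 (adjusted p = 5.03e-06, limma).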

How the data were processed

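RNA-seq of 10 QGP-1 samples was analysed in 2 tables. Trimming by the authors used Trimmomatic. Transcript quantities were then summed per gene by the authors and scaled with the TMM method of edgeR. The deposited values are a normalized signal on the CPM scale, each table scaled on its own, and sums per sample lay between 972493 and 1024332. Per the submitters' processing notes the build is hg38. The quantifier is not given in the sources used here. The labels describe depletion of ribosomal RNA and the methods oligo(dT) selection.

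A gene entered the test where its mean in the table reached 1 CPM. Values were taken as log2(CPM + 1) and fitted with limma 3.58.1 under R 4.3.3, using lmFit and then eBayes with trend. P-values were adjusted by Benjamini-Hochberg across every gene in the fit, with 0.05 as threshold. There were 4 samples in the knockdown fit and 6 in the drug fit. Plain CPM had been assumed when the design was written. No count model was planned, because the values are on the CPM scale. Of the low values only 68.1% to 71.5% were whole reads within 0.02. Depth was estimated from their spacing. No replicates were closer than sampling noise (median chi-square over expectation 1.87 to 2.85). The procedure was tested on simulated data.

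The members, lists and tests were chosen with earlier results of these data known. All members are named, with PIKFYVE, 8 further genes chosen by name, and from each further list the highest and lowest called gene of each comparison with a control. A few items that this rule names are not reported here. The lists are other plasma membrane, lysosomal and mitochondrial carriers, the ATF4 pathway, enzymes, surface control and markers. Of the 10 neuroendocrine and epithelial markers, 2 rose and 3 fell in the knockdown, 2 rose and 1 fell with apilimod, and 3 rose and 4 fell with Torin-1. Of 2 markers of other cell types that were tested, COL1A1 fell in the knockdown (-0.51). With the drugs limma called neither, and 0 had an unadjusted p under 0.05 against DMSO. Gene positions are from GENCODE release 29 on GRCh38, in which 35547 gene IDs were found without regard to version. Names of 27 genes that had become dates were restored from gene IDs. As alternatives, the pseudocount was set to 0.1, the filter was dropped, values were quantile normalized or rescaled to a common sum, a replicate block was added, the variance trend was dropped, the fit was limited to the groups compared, and each sample was left out.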

Additional observations from a re-analysis of the deposited data

How the results depend on the processing

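With 2 samples a group, the apilimod comparison depended most on the processing. The number of genes called there was 1155, and it was 565 with no filter on low values, 466 with no variance trend and between 597 and 1310 with 1 sample left out. Of the 10 transporters 4 were called, against 1 with no filter, 0 with no variance trend (limma, where 5 had an unadjusted p under 0.05, 4 of them higher) and 1 to 5 with 1 sample left out. In the knockdown 5772 genes were called, and 3709 with no variance trend. The number of transporters called was 6 to 8 in the knockdown, 6 to 8 with Torin-1 and 7 to 8 between the drugs over all alternatives. No pairing of samples of the same number is given, and the correlation of their deviations was 0.037 to 0.10. Adding a replicate block raised the number of genes called in the knockdown to 6111. It rose from 5202 to 5903 with Torin-1 and from 6312 to 6960 between the drugs. With a replicate block 1756 genes and 5 transporters were called with apilimod, SLC38A1 being added, while the knockdown, Torin-1 and direct comparisons kept 8, 8 and 7 transporters as counts. Values near 0 changed sign. SLC43A1 with apilimod was -0.019 after quantile normalization, -0.026 with samples rescaled to a common sum and between -0.040 and 0.045 with 1 sample left out. SLC7A6 with apilimod lay between -0.034 and 0.18, SLC1A4 with Torin-1 between -0.024 and 0.049, and SLC1A4 between the drugs between -0.00085 and 0.073 with 1 sample left out. The last was -0.052 after quantile normalization and -0.025 with samples rescaled. The causes were not tested. Over single transporters and alternatives, 89 of 100 values in the knockdown, 108 of 130 with apilimod, 122 of 130 with Torin-1 and 125 of 130 between the drugs kept their direction and side of the threshold.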
